A study of Homo sapiens with 33 samples.

Results

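The aryl hydrocarbon receptor genes described here are 6 of the 60675 genes in a count table from HT29, a cell line derived from a human colorectal adenocarcinoma: AHR, ARNT, AHRR, CYP1A1, CYP1B1 and TIPARP. They were chosen as a receptor system, with earlier results of these data known, and were found by Ensembl identifier. That CYP1A1 varied among the vehicle libraries was known beforehand. All 6 passed the filter on low counts that left 17432 genes. The table covers 33 RNA-seq libraries taken 24 h after treatment: 3 of vehicle, which is DMSO without extract, and 30 of ethanol extracts of 4 herbal formulas. Sagunja-tang and Samul-tang had 2 libraries at each dose, and Palmul-tang and Sibjeondaebo-tang had 3. Where 4 values follow each other, they are in this order of the formulas. The high, medium and low doses were 500, 100 and 20 µg/mL. No genetic change was made in any group. The labels put DMSO at 0.1% in vehicle, whereas the series text says 2%. HT29 is a single tumour-derived line, and the labels do not say whether replicates came from separate cultures, so p-values measure the spread between these libraries, which may be technical.

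AHR is a ligand-activated transcription factor that waits in the cytoplasm with HSP90 and co-chaperones. Once it binds a ligand, such as a planar aromatic pollutant, a plant flavonoid or a tryptophan product, it enters the nucleus, pairs with ARNT and binds DNA at a GCGTG core. CYP1A1 and CYP1B1, oxidising enzymes of the cytochrome P450 family, are its classical targets, and AHRR and TIPARP are targets that in turn damp the receptor. In gut epithelium the receptor senses compounds from diet and microbes, and CYP1A1 clears its own inducers.

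The GCGTG core is shown where it lies in the 250 bases before an annotated RefSeq start (GRCh38.p14). The reference held such windows for 5 of the 6 genes, 8 in all, since AHRR has 2 annotated starts and TIPARP has 3. CYP1B1 had no entry. The core GCGTG, searched on both strands, lay in 4 of the 8 windows, against 32.2% of 35116 windows of all genes. The sites below are written 5′ to 3′ on the strand that reads GCGTG, with the core in capitals and up to 12 bases on either side. The 6 sites belong to CYP1A1, AHRR and TIPARP, and the windows of AHR and ARNT held none.
CYP1A1, chr15:74725569-74725597, minus strand: ccagggaaggagGCGTGgccacacgtaca
AHRR, chr5:321672-321700, plus strand: ggcgggcggctcGCGTGccggggtggggc
AHRR, chr5:322360-322379, plus strand: ggcGCGTGacaggcaggggc
AHRR, chr5:322556-322584, plus strand: gcagaagggtggGCGTGtgcgcgcgttct
TIPARP, chr3:156674370-156674398, minus strand: tcccgcgaggggGCGTGtcctttctcgcg
TIPARP, chr3:156674436-156674464, minus strand: ccccctgcgcgcGCGTGcgcgttcgttcg
The CYP1A1 core lay 57 to 53 bases before the RefSeq start. All 6 sites lie inside their genes as GENCODE v29 draws them, since that annotation begins CYP1A1, AHRR and TIPARP farther upstream. The longer core TNGCGTG, searched on both strands and always holding a GCGTG, was in 1 of the 8 windows, which belongs to AHRR and holds the first AHRR site shown, against 4.52% of all windows. A match to these letters is a description and not a bound site, and DNA farther from the starts was not searched.

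Depth ran from 31.07 to 35.63 M counts in the vehicle libraries and from 28.56 to 49.07 M in the extract libraries. All 11 colorectal epithelial markers passed the filter, with a summed level of 11691 to 12173 CPM (counts scaled to a common library size) in vehicle and 11121 to 13620 CPM in the extract libraries. Of 6 hepatocyte markers, looked at because liver is rich in cytochrome P450 enzymes, 1 passed and the summed level stayed at or below 0.638 CPM. The 6 fibroblast markers summed to 1.65 to 2.74 CPM over all libraries, with 2 passing, and the 3 endothelial markers to 1.13 to 2.07 CPM, with 1 passing. Of 5 leukocyte markers 2 passed, and their sum of 1367 to 1822 CPM lay almost wholly in LYZ. Named because they were at or near 0 in every library are ALB, FGB and TF of hepatocytes and COL1A2, COL3A1, DCN and PDGFRA of fibroblasts. CDH5 of endothelium and PTPRC and CD3E of leukocytes are named for the same reason. Other markers on these lists were not near 0, with the highest gene median at 1.21 CPM for fibroblasts and 1.54 CPM for endothelium. The share of counts from mitochondrial genes was 8.69, 9.91 and 11.4% in the vehicle libraries and 5.71 to 8.83% with extract, and its part in the differences from vehicle was not tested. Every sample title carries the same batch name, BatchE. The labels also give vehicle samples a code prefix of their own, Sagunja-tang and Samul-tang another, and Palmul-tang and Sibjeondaebo-tang another again. What the prefixes mean is not stated, so a difference between these sets of samples and an effect of extract cannot be told apart.

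Per kilobase of exon, which allows genes to be compared, TIPARP and AHR were the most abundant members, with medians of 17.9 and 14.3 CPM per kb over the 33 libraries. CYP1B1 followed at 8.68 and ARNT at 5.35 CPM per kb. AHRR, at 0.778, and CYP1A1, at 0.241 CPM per kb, were scarce. The receptor and its partner were thus well measured, whereas CYP1A1 rested on 14 to 73 counts per extract library. From here on levels are CPM not divided by length, so they compare libraries for 1 gene and not genes with each other. Some counts could be shared with neighbours. In GENCODE v29, 2373 of the 8081 exonic bases of AHR (ENSG00000106546, chr7:16916359-17346152, plus strand) also belong to AC019117.2 on the same strand, 244 of 7678 of AHRR (ENSG00000063438, chr5:304176-438291, plus strand) to PDCD6 on the same strand, and 678 of 6014 of CYP1B1 (ENSG00000138061, chr2:38066973-38109902, minus strand) to CYP1B1-AS1 on the other. TIPARP (ENSG00000163659, chr3:156673235-156706770, plus strand) shares 37 bases with TIPARP-AS1. No exonic base of CYP1A1 (ENSG00000140465, chr15:74719542-74725610, minus strand) or ARNT (ENSG00000143437, chr1:150809705-150876768, minus strand) is shared with another gene.

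One vehicle library stood apart in CYP1A1, CYP1B1 and TIPARP. CYP1A1 was at 5.25 CPM in vehicle replicate 1 (165 counts, 95% Poisson interval 4.48 to 6.12), at 0.60 in replicate 2 (21 counts, 0.37 to 0.92) and at 0.63 in replicate 3 (19 counts, 0.38 to 0.99). These intervals cover counting error only. The first vehicle library lay above all the others. Replicates 2 and 3 lay in the lower part of the low-dose extract range, which ran from 0.39 to 0.99 CPM with a median of 0.70. CYP1B1 was at 86.16, 53.59 and 53.42 CPM in the same order, and the highest of the other 32 libraries had 55.86 CPM. TIPARP was at 113.69, 90.22 and 94.89 CPM, with 103.94 CPM as the highest of the others. The other 3 members, among them the target AHRR, were not highest there: AHR was at 123.65, 140.18 and 126.38 CPM, ARNT at 36.16, 38.21 and 41.47 CPM and AHRR at 6.78, 7.04 and 6.88 CPM.

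The library was not high in general. Vehicle replicate 1 held the highest value of the 33 libraries for 639 of 17432 genes (3.67%), fewer than vehicle replicate 2 with 1150 and replicate 3 with 2462. Ranked by the gap above the next library on the log2 CPM scale, CYP1A1 came first of the 17432 genes, with a gap of 1.47. CYP1B1 came at rank 5, with 0.62, and the 3 genes between them were at 2.20 CPM or less in that library. TIPARP came at rank 135, with 0.13. Of the 20 tested genes on a wider list of reported receptor targets, 3 were also highest there: ALDH1A3, an aldehyde dehydrogenase that makes retinoic acid, at 37.24 CPM against 27.90 and 27.55 in the other vehicle libraries, PTGS2 at 25.97 against 23.19 and 22.00, and NFE2L2 at 147.17 against 145.50 and 145.08. NQO1 and ALDH3A1, detoxifying enzymes that the receptor shares with the NRF2 response, were not. The mitochondrial share of this library, 8.69%, was the lowest of the 3 vehicle libraries. What set it apart was not tested. Results against vehicle are therefore given with all 33 libraries and again without vehicle replicate 1, a fit that tested 17395 genes. Vehicle replicate 1 was singled out by its CYP1A1 value and was also highest in CYP1B1 and TIPARP. For these 3 genes the second fit is a description, and its p-values are not independent support.

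A second library was the lowest for several members. Replicate 2 of Sagunja-tang at the high dose held the lowest of the 33 values for 4 of the 6 members: AHR at 103.85 CPM, ARNT at 26.93, CYP1B1 at 44.45 and TIPARP at 80.63. The next lowest values were 103.88, 30.07, 47.14 and 82.91 CPM in the same order, so for AHR it was nearly tied. This replicate was the lowest library for 2761 of the 17432 genes (15.8%), and the result for each of the 4 members without it is given below.

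**Figure D1:**
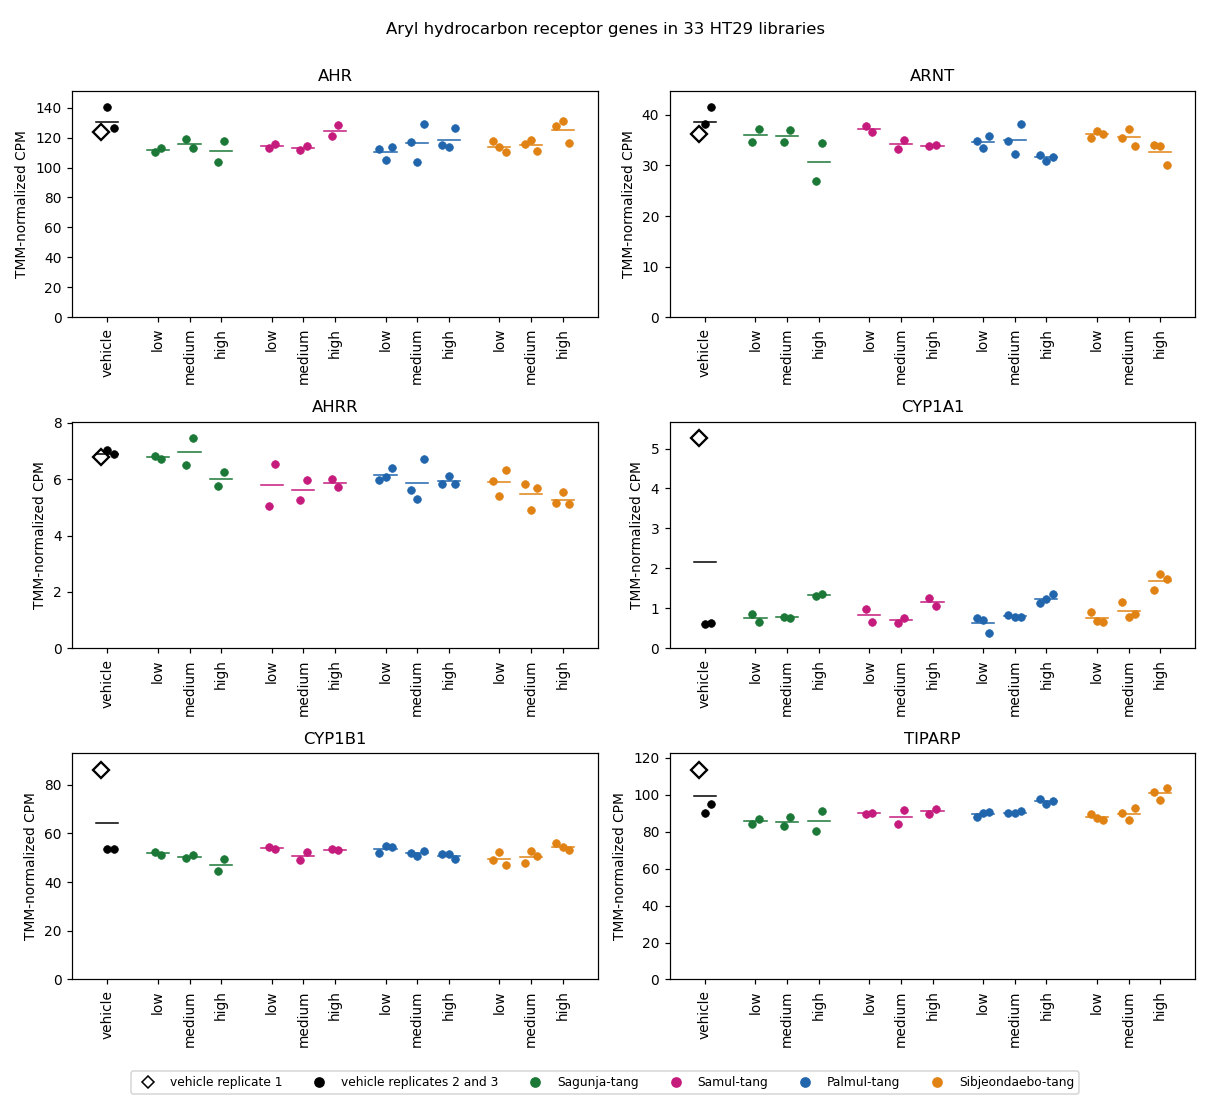
TMM-normalized CPM (vertical axes, from 0) of the 6 genes in each of the 33 libraries, by formula and dose, with points for libraries and lines for group means. The open diamond, vehicle replicate 1, lies above all other libraries for CYP1A1 (5.25 CPM), CYP1B1 (86.16 CPM) and TIPARP (113.69 CPM) and within the range of the other libraries for AHR, ARNT and AHRR.

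CYP1A1 was higher at the high dose than at the low dose in all 4 formulas, by 1.41 to 2.23 times in the fitted means. With Sibjeondaebo-tang it was at 1.46, 1.86 and 1.72 CPM at the high dose, at 1.17, 0.79 and 0.86 at the medium one and at 0.90, 0.68 and 0.67 at the low one. With Palmul-tang it was at 1.13, 1.23 and 1.36 CPM at the high dose, 0.83, 0.79 and 0.78 at the medium one and 0.76, 0.71 and 0.39 at the low one. High-dose and low-dose libraries did not overlap in either formula. With Sagunja-tang the high dose gave 1.32 and 1.36 CPM, the medium 0.78 and 0.77 and the low 0.85 and 0.67. With Samul-tang the high dose gave 1.27 and 1.07 CPM, the medium 0.64 and 0.77 and the low 0.99 and 0.66. All 10 high-dose libraries lay above all 10 low-dose libraries, and 8 of the 10 lay above all 20 medium-dose and low-dose libraries. With all 33 libraries 7.19, 7.53, 14.4 and 29.9% of all genes were called between high and low dose in the 4 formulas. For CYP1A1 and the members below, how many of all genes separated without overlap, between doses or from vehicle, is not given. The highest extract library, at 1.86 CPM, still lay far below the 5.25 CPM of vehicle replicate 1.

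**Figure D2:**
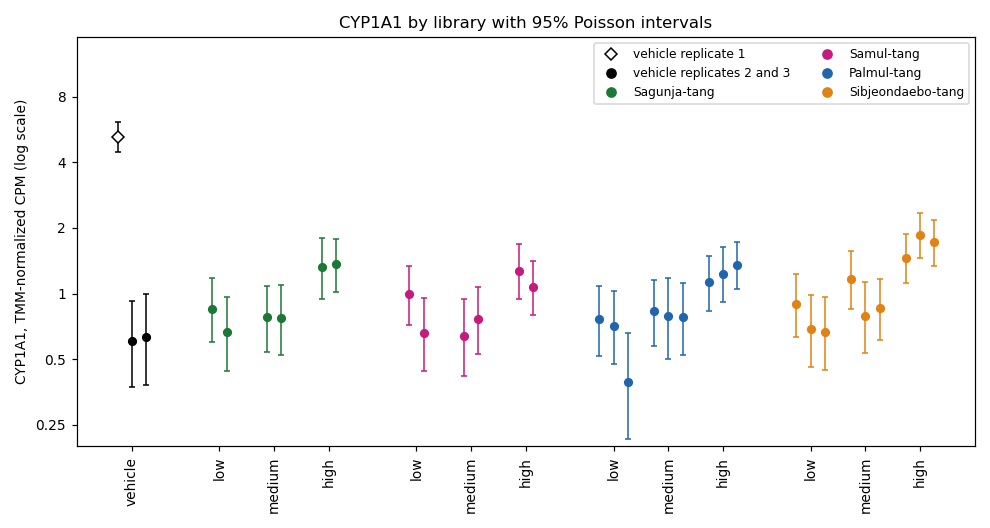
CYP1A1 in each library as TMM-normalized CPM on a log scale, with 95% Poisson intervals from its counts. The 10 high-dose libraries (1.07 to 1.86 CPM) lie above the 10 low-dose libraries (0.39 to 0.99 CPM), vehicle replicates 2 and 3 lie at 0.60 and 0.63 CPM, and vehicle replicate 1 lies apart at 5.25 CPM.

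Whether this dose difference passed the test turned on vehicle replicate 1, although no vehicle library is on either side of the comparison, because the spread was estimated over all groups. With all 33 libraries the log2 fold changes of high against low dose were 0.82 ± 0.60 (SE) for Sagunja-tang, 0.49 ± 0.59 for Samul-tang, 0.97 ± 0.50 for Palmul-tang and 1.16 ± 0.47 for Sibjeondaebo-tang. The adjusted p-values of edgeR's quasi-likelihood test were 0.433, 0.730, 0.221 and 0.0615, so none passed 0.05. When vehicle replicate 1 was left out, the fold changes were the same to 2 decimals and the standard errors were 0.24, 0.24, 0.20 and 0.19. The adjusted p-values were then 0.0397, 0.245, 0.00145 and 3.84e-05, and 3 of the 4 passed. The library left out was chosen for its CYP1A1 value, so these smaller p-values are not independent support. For Sibjeondaebo-tang the difference also passed with all libraries in DESeq2, at an adjusted p of 0.0489, and when only its high-dose and low-dose libraries were fitted, at 0.000631. For Palmul-tang it passed when only those groups were fitted, at 0.0160.

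Against vehicle the direction of CYP1A1 depended on the same library. With all 3 vehicle libraries it was lower in 12 of 12 extract groups, by log2 changes from -1.76 to -0.36, and 5 passed the test, none of them at the high dose. Without vehicle replicate 1 it was higher in 12 of 12 groups, by 0.03 to 1.44, and 4 passed, which were the 4 high doses. Those log2 changes were 1.12 ± 0.26 for Sagunja-tang (adjusted p = 0.00151), 0.91 ± 0.26 for Samul-tang (0.0103), 1.00 ± 0.24 for Palmul-tang (0.00247) and 1.44 ± 0.24 for Sibjeondaebo-tang (2.94e-05). In that fit 18.4, 15.2, 16.8 and 19.7% of all genes were called higher in the same 4 comparisons, so a rise was common among genes at this dose. All 12 comparisons share the vehicle libraries, and their directions are not independent of each other. Vehicle replicate 1 was left out because of its CYP1A1 value, which raises the changes and narrows the spread. The changes and p-values without it are thus a description and not independent support.

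CYP1B1, the other cytochrome P450 target, held nearly the same level in all groups apart from vehicle replicate 1. It ran from 44.45 to 55.86 CPM with a median of 52.25 in the 10 high-dose libraries, and from 47.14 to 54.84 CPM with a median of 52.46 in the 10 low-dose libraries. With all libraries it was lower than vehicle in 12 of 12 groups and 8 passed the test. When vehicle replicate 1 was left out, only Sagunja-tang at the high dose passed, at -0.19 ± 0.05 (adjusted p = 0.00900). That comparison with all vehicle libraries gave -0.45 ± 0.11 (adjusted p = 0.00261), and without Sagunja-tang high replicate 2 it gave -0.37 (adjusted p = 0.0761). High against low dose gave -0.14 ± 0.12, -0.02 ± 0.12 and -0.08 ± 0.10 for Sagunja-tang, Samul-tang and Palmul-tang. With Sibjeondaebo-tang it was at 55.86, 54.42 and 53.12 CPM at the high dose and at 49.03, 52.45 and 47.14 at the low dose, without overlap, a difference of 0.14 ± 0.10 (adjusted p = 0.323). Without vehicle replicate 1 that difference passed, at 0.14 ± 0.04 (adjusted p = 0.0186).

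TIPARP, an enzyme that modifies AHR with ADP-ribose and limits its activity, rose with dose in Sibjeondaebo-tang. It was at 101.27, 97.15 and 103.94 CPM at the high dose, 90.20, 86.59 and 92.84 at the medium one and 89.43, 87.49 and 86.47 at the low one. High-dose and low-dose libraries did not overlap, and the log2 fold change was 0.20 ± 0.06 (adjusted p = 0.00727), a call that held under every alternative run. It was the only member called between doses with all 33 libraries, in a comparison where 29.9% of all genes were called and 15.5% were called higher. With Palmul-tang the high-dose libraries, at 97.87, 95.00 and 96.60 CPM, also lay above the low-dose ones at 87.77, 89.92 and 90.86, and the difference of 0.11 ± 0.06 did not pass (adjusted p = 0.215). Sagunja-tang and Samul-tang gave 0.01 ± 0.07 and 0.02 ± 0.07. Against vehicle 5 of 12 groups were called lower with all libraries, among them Sagunja-tang at the high dose, at -0.21 ± 0.06 (adjusted p = 0.00963). Without Sagunja-tang high replicate 2 that comparison gave -0.12 (adjusted p = 0.302), and without vehicle replicate 1 it gave -0.10 ± 0.05 (adjusted p = 0.114). In the fit without vehicle replicate 1 no group was called lower, and Sibjeondaebo-tang at the high dose was called higher, at 0.12 ± 0.05 (adjusted p = 0.0363).

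AHRR, the repressor that competes with AHR for ARNT, was lower than vehicle in 11 of 12 extract groups. With all libraries 3 of these passed the test. With Sibjeondaebo-tang AHRR was at 5.14, 5.56 and 5.12 CPM at the high dose and 5.82, 4.89 and 5.69 at the medium dose. All of these lay below the 6.78 to 7.04 CPM of vehicle. The high dose gave a log2 change of -0.39 ± 0.09 against vehicle (adjusted p = 0.00153), called under every alternative run, and the medium dose -0.33 ± 0.09 (adjusted p = 0.00943). When vehicle replicate 1 was left out, these were -0.40 ± 0.11 (adjusted p = 0.00374) and -0.35 ± 0.11 (adjusted p = 0.0168). Without Sibjeondaebo-tang medium replicate 2 the medium dose gave -0.26 (adjusted p = 0.0595). Samul-tang at the medium dose, with 5.25 and 5.97 CPM, was called lower at -0.30 ± 0.10 (adjusted p = 0.0428), a call lost in DESeq2 (adjusted p = 0.0646), without vehicle replicate 1 (-0.31 ± 0.12, adjusted p = 0.0562) and without its own replicate 2 (-0.20, adjusted p = 0.395). The Samul-tang and Palmul-tang libraries at every dose also lay below all vehicle libraries, at 5.07 to 6.71 CPM. So did Sagunja-tang at the high dose, at 5.77 to 6.24 CPM, and Sibjeondaebo-tang at the low dose, at 5.41 to 6.34 CPM. Sagunja-tang at the low and medium doses overlapped vehicle, with 6.51 to 7.45 CPM. Between high and low dose no formula passed for AHRR, and the largest difference was -0.17 ± 0.11 in Sagunja-tang.

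AHR itself was lower than vehicle in 12 of 12 extract groups, by log2 changes from -0.24 to -0.06. With all libraries 6 groups passed the test, and none of these 6 calls held without vehicle replicate 2. In the 10 low-dose libraries it ran from 105.03 to 117.47 CPM with a median of 113.11, and all 10 lay below the 123.65 CPM of the lowest vehicle library. In the 10 high-dose libraries it ran from 103.85 to 130.85 CPM with a median of 119.27 and overlapped vehicle. The largest difference was Palmul-tang at the low dose, at -0.24 ± 0.06 (adjusted p = 0.00796). It rested in part on vehicle replicate 2, the highest library at 140.18 CPM, without which it was -0.18 (adjusted p = 0.0712), and on Palmul-tang low replicate 2, without which it was -0.20 (adjusted p = 0.0734). Sagunja-tang at the high dose, at -0.23 ± 0.07 (adjusted p = 0.0107), gave -0.14 without its own replicate 2 (adjusted p = 0.284). In the fit without vehicle replicate 1 AHR was lower in the same 12 groups and 8 passed, with -0.27 ± 0.07 for Palmul-tang at the low dose (adjusted p = 0.00595) and -0.27 ± 0.08 for Sagunja-tang at the high dose (adjusted p = 0.00702). Between high and low dose the change ran from -0.01 ± 0.08 in Sagunja-tang to 0.13 ± 0.06 in Sibjeondaebo-tang, and none passed.

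ARNT, the partner that AHR needs to bind DNA and that also serves the hypoxia factors, was lowest at the high doses. Palmul-tang gave 32.05, 30.93 and 31.75 CPM and Sibjeondaebo-tang 33.95, 33.78 and 30.07. Samul-tang gave 33.88 and 33.94 CPM and Sagunja-tang 26.93 and 34.48. All 10 of these lay below the lowest vehicle library, at 36.16 CPM. Against vehicle the log2 changes were -0.29 ± 0.07 for Palmul-tang (adjusted p = 0.00160) and -0.24 ± 0.07 for Sibjeondaebo-tang (adjusted p = 0.00501), both called under every alternative run, and -0.33 ± 0.07 and -0.29 ± 0.07 without vehicle replicate 1 (adjusted p = 0.00109 and 0.00288). Samul-tang gave -0.19 ± 0.08 (adjusted p = 0.0654), and -0.23 ± 0.08 without vehicle replicate 1 (adjusted p = 0.0331). Sagunja-tang gave -0.32 ± 0.08 (adjusted p = 0.00151), -0.37 ± 0.08 without vehicle replicate 1 (adjusted p = 0.000918) and -0.16 without its replicate 2 (adjusted p = 0.184). High against low dose gave -0.22 ± 0.08, -0.14 ± 0.08, -0.14 ± 0.07 and -0.15 ± 0.07 in the 4 formulas. The high-dose libraries lay below the low-dose libraries within each formula, and no difference passed (adjusted p from 0.0959 to 0.384). Without Sagunja-tang high replicate 3 the difference in Sagunja-tang was -0.42 (adjusted p = 0.000960), and without replicate 2 it was -0.06 (adjusted p = 0.887). ARNT and CYP1A1 thus stood in opposite order between the doses.

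**Figure D3:**
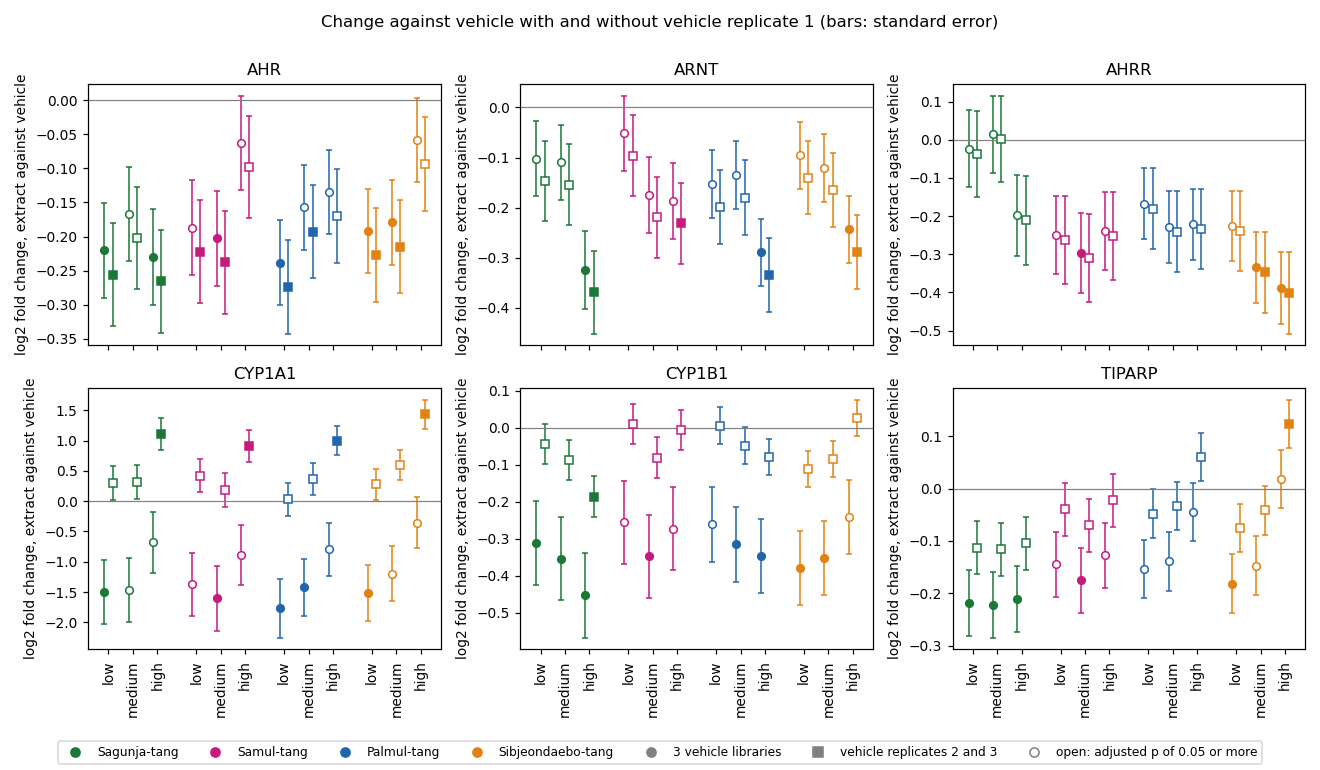
Log2 fold change against vehicle with its standard error for the 12 extract groups and 6 genes, with 3 vehicle libraries (circles) or vehicle replicates 2 and 3 (squares), filled where the adjusted p was under 0.05. CYP1A1 lies below 0 in 12 of 12 groups with all vehicle libraries and above 0 in 12 of 12 without replicate 1, whereas AHR and ARNT lie below 0 in both.

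Read by comparison, the 6 members gave 30 calls in 72 tests against vehicle with all 33 libraries, all of them lower, and many other genes were called too. At the high dose 4, 0, 2 and 2 of the 6 members were called lower in the 4 formulas, where 18.0, 12.5, 14.8 and 19.1% of all genes were. At the medium dose the counts were 2, 5, 2 and 3, against 8.05, 9.27, 9.63 and 12% of genes. At the low dose they were 4, 0, 2 and 4, against 10.7, 8.71, 9.74 and 10.9%. CYP1A1, CYP1B1 and TIPARP supplied 18 of these calls. With vehicle replicate 1 left out, 12 of the 30 calls remained, and 8 others were added, 5 of them higher. At the high dose 4, 2, 2 and 4 members were then called in either direction, against 36.1, 27.9, 31.5 and 38.1% of all genes. At the medium dose 0, 1, 1 and 2 were called, against 17.8, 21.4, 21.3 and 26.1%. At the low dose 1 member was called in each formula, against 22.9, 18.9, 21.2 and 22.3%. AHR was the member called in 7 of these 8 medium-dose and low-dose comparisons, with AHRR beside it in Sibjeondaebo-tang at the medium dose. Between high and low dose no member was called with Sagunja-tang, Samul-tang or Palmul-tang, where 7.19, 7.53 and 14.4% of genes were, and over the 4 formulas 5 of 24 tests had an unadjusted p under 0.05. In the fit without vehicle replicate 1 the counts were 1, 0, 1 and 3 of 6 members in the 4 formulas, against 7.35, 7.62, 14.5 and 30.1% of genes.

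Medium against low dose changed none of the members by the edgeR test in any formula, with 0 of 24 tests at an unadjusted p under 0.05. Of all genes 0.0, 0.00574, 0.00574 and 0.0975% were called there. Among members CYP1A1 had the largest values, 0.34 ± 0.55 in Palmul-tang and 0.32 ± 0.51 in Sibjeondaebo-tang. Nor was any member called between formulas at the high dose, with 2 of 24 tests at an unadjusted p under 0.05. The 4 comparisons called 5.47% of genes for Samul-tang against Sagunja-tang, 3.87% for Sibjeondaebo-tang against Palmul-tang, 1.82% for Palmul-tang against Sagunja-tang and 0.138% for Palmul-tang against Samul-tang. For CYP1A1, Sibjeondaebo-tang exceeded Palmul-tang by 0.44 ± 0.43 (adjusted p = 0.669), or by 0.44 ± 0.18 without vehicle replicate 1 (adjusted p = 0.196), although their high-dose libraries did not overlap. DESeq2 also called no member between formulas, but in some comparisons it gave no adjusted p for CYP1A1 or AHRR, so no call was possible there. Whether comparisons between formulas are among these is not given here.

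Other reported targets of the receptor went both ways with dose. Of 28 genes listed, 20 passed the filter, and CYP1A2, the liver counterpart of CYP1A1, did not, with at most 0.06 CPM in any library. Between high and low dose 5, 6, 6 and 7 of the 20 were called higher and 2, 2, 4 and 3 lower in the 4 formulas. Of all genes 3.33, 4.1, 7.66 and 15.5% were called higher and 3.86, 3.43, 6.75 and 14.3% lower. The medians of the list were 0.02, -0.01, 0.04 and 0.05 on the log2 scale, near the medians of all genes, which lay between -0.01 and 0.00. The targets called higher were detoxifying enzymes and transporters. Those called lower were PTGS2 and ALDH1A3 in 3 formulas each, HES1 and NEDD9 in 2 each and ABCC4 in 1. PTGS2, which starts prostaglandin synthesis, gave -0.15 ± 0.06 in Sagunja-tang without a call and fell by 0.26 ± 0.06, 0.17 ± 0.05 and 0.20 ± 0.05 in the other formulas. ALDH1A3 gave -0.19 ± 0.09 in Sagunja-tang without a call and fell by 0.40 ± 0.09, 0.33 ± 0.08 and 0.24 ± 0.08 in the others. ALDH3A1, an aldehyde dehydrogenase, rose by 0.89 ± 0.06, 1.34 ± 0.06, 1.23 ± 0.05 and 1.46 ± 0.05 in the 4 formulas. In Sibjeondaebo-tang its level went from 23.83 to 26.47 CPM at the low dose to 66.56 to 70.28 CPM at the high dose. NQO1, a quinone reductase, rose by 0.50 ± 0.06, 0.67 ± 0.06, 0.59 ± 0.05 and 0.76 ± 0.05. ABCG2, an efflux pump, rose by 0.39 ± 0.05, 0.63 ± 0.05, 0.43 ± 0.04 and 0.58 ± 0.04. UGT1A6, which conjugates phenols, rose by 0.45 ± 0.07, 0.82 ± 0.07, 0.63 ± 0.05 and 0.76 ± 0.05, but UGT1A genes share exons, so their counts are uncertain. NQO1 and ALDH3A1 also answer to NRF2, and NFE2L2, which encodes NRF2, gave -0.01 ± 0.06, -0.11 ± 0.06, 0.01 ± 0.04 and 0.00 ± 0.04 between high and low dose. Against vehicle NFE2L2 was called lower in 12 of 12 extract groups in both fits, by -0.34 to -0.22 with all libraries, at 109.65 to 129.22 CPM with extract against 145.08 to 147.17 CPM in vehicle.

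**Figure D4:**
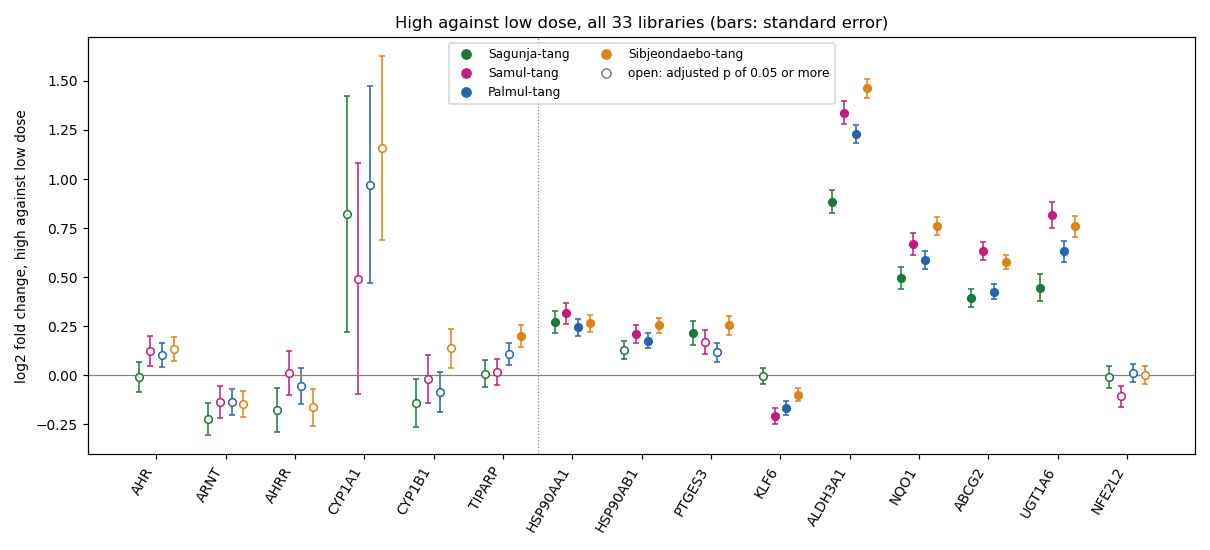
Log2 fold change of high against low dose with its standard error in 4 formulas, for the 6 members (left of the dotted line) and the named partners and targets, with all 33 libraries and filled points where the adjusted p was under 0.05. CYP1A1 lies at 0.49 to 1.16 with wide errors and no call, and ALDH3A1, NQO1, ABCG2 and UGT1A6 were called in all 4 formulas.

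Among the receptor's partners, 14 of 15 listed genes were tested, and 2, 2, 3 and 5 were called higher and 1, 1, 2 and 2 lower between high and low dose in the 4 formulas, where 7.19, 7.53, 14.4 and 29.9% of all genes were called in either direction. HSP90AA1, which encodes a form of the chaperone that holds AHR, rose in all 4 by 0.27 ± 0.05, 0.32 ± 0.05, 0.24 ± 0.04 and 0.27 ± 0.04. HSP90AB1, the other cytosolic form, gave 0.13 ± 0.04 in Sagunja-tang without a call and rose by 0.21 ± 0.04, 0.18 ± 0.04 and 0.25 ± 0.04 in the other formulas. PTGES3, the p23 co-chaperone, rose by 0.22 ± 0.06 in Sagunja-tang and 0.25 ± 0.05 in Sibjeondaebo-tang. KLF6, a zinc-finger factor reported to pair with AHR, fell by 0.21 ± 0.04, 0.17 ± 0.03 and 0.10 ± 0.03 in Samul-tang, Palmul-tang and Sibjeondaebo-tang. ARNT2, which can stand in for ARNT, was at or below 0.05 CPM. Against vehicle at the high dose 4, 3, 3 and 5 partners were called higher, where 18.7, 15, 17.3 and 20.5% of all genes were, and 5, 5, 7 and 5 lower, where 18.0, 12.5, 14.8 and 19.1% were. HSP90AA1 and PTGES3 were called higher and the coactivators NCOA1, NCOA2, NCOA3 and CREBBP lower in all 4 formulas, also without vehicle replicate 1. Of the partners 5 of 14, these 4 coactivators and EP300, had their lowest level in Sagunja-tang high replicate 2. Of 7 enzymes of tryptophan metabolism that make or break receptor ligands, 5 were tested. Between high and low dose 1 was called, KYNU in Sibjeondaebo-tang, lower at -0.33 ± 0.11 (adjusted p = 0.0323).

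The likeness of each member to other genes was taken as Pearson's r of log2 CPM over the 33 libraries among 11588 genes. The libraries share doses, sample sets and depth differences, so r is a description. Among the genes most like CYP1A1 were ADGRF1 (0.74), NUS1 (0.71), EAF1 (0.69) and EIF5 (0.69). Without vehicle replicate 1 the 5 most like it were NAA50 (0.88), PPM1G (0.87), GDE1 (0.87), UBL4A (0.87) and AIFM2 (0.86), and none of the genes named for 33 libraries was among them. The r of CYP1A1 with CYP1B1 went from 0.57 to -0.09 and with TIPARP from 0.69 to 0.49 when that library was left out, and with ARNT from -0.36 to -0.59. CYP1B1 was most like BRAP (0.71), TIPARP (0.71) and MAP3K4 (0.67) over 33 libraries, and SUSD1 and LY75-CD302 were among the most like it over 32. AHR was most like CD2AP (0.86), CSNK2A1 (0.85) and SLC25A44 (0.82), and its r with ARNT was 0.37. ARNT was most like CAPN5 (0.90), PARVA (0.89) and ZSWIM6 (0.89), AHRR most like WNT2B (0.68), DUSP18 (0.67) and HMGN3-AS1 (0.67), and TIPARP most like SYNCRIP (0.77), USP7 (0.76) and MYC (0.76).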

How the data were processed

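RNA from 33 HT29 samples was sequenced, and the values are RSEM expected counts per gene as deposited. Per the submitters' processing notes the tools were FastQC 0.11.9, Trim Galore 0.6.5, STAR 2.7.3a and RSEM 1.3.3, with the builds hg38 and GRCh38. The annotation release and the strand setting of the counting are not given in the sources used here. Of the 273 columns, 240 belong to other samples and were not used. Of the values 9.45% were not whole, and all were rounded. Identifiers were matched to GENCODE v29, and 57055 of 60675 had a symbol.

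Genes were filtered with filterByExpr (minimum count 10) and scaled by TMM, and edgeR 4.0.16 in R 4.3.3 fitted 1 coefficient per group over all 33 libraries. Its quasi-likelihood test was used with Benjamini-Hochberg adjustment over 17432 genes in each of 24 comparisons, at a threshold of 0.05. There were 20 residual degrees of freedom, and the prior added 7. Standard errors were derived from the F statistic. CPM values are TMM-normalized, and Poisson intervals are at 95%. The model was tested on simulated counts for Sibjeondaebo-tang high against low only, with the same spread in every library and no outlying library. That check does not bear on the effect of vehicle replicate 1. The alternatives were DESeq2 1.42.0, RLE scaling, TMM without mitochondrial genes, no filter, fits of only the groups compared, a replicate block and leaving out each library. Leaving vehicle replicate 1 out of comparisons without vehicle, and likeness over 32 libraries, were added after seeing the data.

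The members and gene lists were chosen with earlier results of these data known. Named pathway genes were up to 4 per list called in the most formulas between high and low dose, with NQO1, ALDH3A1 and NFE2L2. The 3 genes most like each member, or 5 for CYP1A1, were named among genes that averaged 1 or more on the log2 CPM scale (prior count 2), and some of these are not reported here. ALDH1A3, PTGS2, HES1, NEDD9, ABCC4, KYNU, CYP1A2, ARNT2 and the coactivators were named after their values were seen.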

Additional observations from a re-analysis of the deposited data

Results flagged for a closer look

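CYP1B1 libraries lay in a different order between doses in different formulas, although no CYP1B1 difference of high against low dose passed the test with all 33 libraries, and without vehicle replicate 1 only that in Sibjeondaebo-tang did. With Sibjeondaebo-tang all 3 high-dose libraries lay above all 3 low-dose libraries. With Sagunja-tang, Samul-tang and Palmul-tang every high-dose library lay below every low-dose library of the same formula. In Samul-tang the 2 doses nearly met, at 53.37 CPM for the high dose and 53.51 CPM for the low dose. Sagunja-tang and Samul-tang had only 2 libraries per dose, where full separation comes easily. How many of all genes separated in this way is not given here. The log2 ratio of mean CPM, high over low dose, was larger in Sibjeondaebo-tang by 0.28 than in Sagunja-tang, by 0.15 than in Samul-tang and by 0.22 than in Palmul-tang. The difference was not tested.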

How the results depend on the processing

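RLE scaling and TMM without mitochondrial genes kept the number of members called within 1.5 times in 24 of 24 comparisons. With DESeq2 the number called against vehicle went from 3 to 5 for Sibjeondaebo-tang medium, 0 to 1 for Samul-tang low and 2 to 4 for Palmul-tang low, and from 1 to 2 for Sibjeondaebo-tang high against low. DESeq2 gave no adjusted p for CYP1A1 in 8 comparisons and for AHRR in 2. With no filter it went against vehicle from 0 to 3 for Samul-tang high and low, 2 to 4 for Sagunja-tang medium and Palmul-tang low and 3 to 5 for Sibjeondaebo-tang medium, and for high against low from 0 to 1 for Sagunja-tang and Palmul-tang and 1 to 4 for Sibjeondaebo-tang. Palmul-tang against Sagunja-tang high went from 0 to 1, and TIPARP in Sagunja-tang high against low went from 0.01 to -0.0031. With only the groups compared, the number against vehicle went from 4 to 0 for Sagunja-tang high, 2 to 0 for Sagunja-tang medium and Palmul-tang medium, 5 to 1 for Samul-tang medium, 4 to 1 for Sagunja-tang low and Sibjeondaebo-tang low and 2 to 1 for Palmul-tang low. For high against low it went from 0 to 2 for Palmul-tang and 1 to 5 for Sibjeondaebo-tang. The cause of these shifts was not tested.

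Same-numbered libraries showed little tendency to deviate together: over 59 pairs r ran from -0.067 to 0.152, with 4 over 0.1. Where both groups had 2 libraries, the 2 values of r are equal by construction, so the 59 are not independent. A weak r cannot settle whether the numbers pair the samples. With the replicate block the number called against vehicle went from 0 to 1 for Samul-tang high, 2 to 1 for Sagunja-tang medium, 2 to 4 for Palmul-tang medium and 4 to 2 for Sagunja-tang low, and from 1 to 2 for Sibjeondaebo-tang high against low, and CYP1A1 in Palmul-tang against Samul-tang high went from 0.09 to -0.11.

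Leaving out 1 library at a time, the number called against vehicle ran from 0 to 4 for Sagunja-tang high and low, Palmul-tang medium and Sibjeondaebo-tang low, 0 to 3 for Samul-tang high, medium and low and Sagunja-tang medium, 2 to 4 for Sibjeondaebo-tang high, 2 to 5 for Sibjeondaebo-tang medium and 1 to 4 for Palmul-tang low. For high against low it ran from 0 to 1 for Sagunja-tang and Palmul-tang and 1 to 3 for Sibjeondaebo-tang, and at the high dose from 0 to 2 for Samul-tang against Sagunja-tang and 0 to 1 for Palmul-tang against Sagunja-tang. CYP1A1 against vehicle was always lowest without vehicle replicate 2 and highest without vehicle replicate 1. In the order of the formulas used above it ran from -1.14 to 1.12, -1.35 to 0.91, -1.26 to 1.00 and -0.82 to 1.44 at the high dose, from -1.93 to 0.32, -2.07 to 0.19, -1.89 to 0.37 and -1.66 to 0.60 at the medium dose, and from -1.96 to 0.30, -1.84 to 0.42, -2.23 to 0.028 and -1.98 to 0.28 at the low dose. Other values near 0 also changed sign. Against vehicle these were CYP1B1 for Sibjeondaebo-tang high (-0.36 to 0.026), Samul-tang low (-0.37 to 0.011) and Palmul-tang low (-0.38 to 0.0053), TIPARP for Palmul-tang high (-0.12 to 0.060) and Sibjeondaebo-tang high (-0.050 to 0.12), AHRR for Sagunja-tang medium (-0.080 to 0.12) and ARNT for Samul-tang low (-0.10 to 0.0014). For high against low they were TIPARP in Sagunja-tang (-0.091 to 0.091) and Samul-tang (-0.015 to 0.029), AHRR in Samul-tang (-0.17 to 0.20) and AHR in Sagunja-tang (-0.11 to 0.074). CYP1A1 medium against low ran from -0.14 to 0.21 in Sagunja-tang and -0.50 to 0.089 in Samul-tang, and Palmul-tang against Samul-tang high from -0.035 to 0.21. The low counts of CYP1A1 and groups of 2 limit the precision.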
